A study of Mus musculus with 12 samples.

Results

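The 3 sestrin genes, Sesn1, Sesn2 and Sesn3, were described together with 5 other regulators of the mTOR kinase that respond to stress, Ddit4, Tsc1, Tsc2, Prkab1 and Deptor. A gene entered this set if the platform annotation gave exactly its symbol for a probe set, and its brightest probe set was used. The 8 genes are 8 of the 22180 with such a probe set, and all 8 were bright enough to be among the 15348 genes tested. They were chosen by their irradiated and untreated log2 levels, in particular the unlike behaviour of Sesn1 and Sesn2, so their irradiation values are given here as a description with no test. Tests are given for the comparison of the genotypes.

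The cells were LSK cells, the bone marrow fraction without lineage markers that carries SCA1 and cKIT and holds haematopoietic stem and progenitor cells. Donor mice were aged, older than 20 months, had at least 10 generations of C57BL/6 backcross behind them, and lacked or carried NIPA, the protein encoded by Zc3hc1. The 12 Affymetrix arrays form 4 groups of 3: irradiated NIPA knockout (KO), untreated KO, irradiated wild type (WT) and untreated WT. Each sample pooled the sorted cells of 3 mice, and all groups spent 30 min in a medium of DMEM with 30% serum that also held the cytokines SCF (50 ng/ml), IL-6 (10 ng/ml) and IL-3 (10 ng/ml). Irradiated samples received 4 Gy and untreated samples none, and all were collected after 3 h. The sources used here do not give how Zc3hc1 was disrupted. The labels do not say whether irradiated and untreated samples were split from the same pools, so a p-value measures only the spread between these arrays.

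The mTOR complex 1 kinase promotes protein synthesis and growth when nutrients and growth factors are present. Sestrins hold back the GATOR2 complex and so keep the Rag GTPases from bringing the kinase to the lysosome, where RHEB would activate it. TSC1 and TSC2 form the complex that switches RHEB off, DDIT4 (also called REDD1) activates that complex under stress, and AMPK, of which Prkab1 encodes a beta subunit, phosphorylates TSC2. DEPTOR binds the mTOR kinase itself and inhibits it. In blood stem cells, loss of TSC1 is known to drive the cells out of quiescence.

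Sesn1, Sesn2 and Ddit4 are all known targets of p53, and the windows around their start sites are shown to set their letters beside their unlike values. Each window runs from 250 bases before to 50 bases after a start site in RefSeq annotation of GRCm38.p6, and capitals mark matches to the motifs searched on both strands. Sesn1 has a pair of start sites, the first at chr10:41810324-41810623 and the second at chr10:41887189-41887488, both on the plus strand. The Sesn2 window is chr4:132510407-132510706 and the Ddit4 window chr10:59951721-59952020, both on the minus strand.
Sesn1, first start: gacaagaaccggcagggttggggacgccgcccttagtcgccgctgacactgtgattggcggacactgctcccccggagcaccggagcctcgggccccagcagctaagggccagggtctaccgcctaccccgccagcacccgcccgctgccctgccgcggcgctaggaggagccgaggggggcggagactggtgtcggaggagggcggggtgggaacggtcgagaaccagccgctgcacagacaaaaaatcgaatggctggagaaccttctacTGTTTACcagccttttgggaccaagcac
Sesn1, second start: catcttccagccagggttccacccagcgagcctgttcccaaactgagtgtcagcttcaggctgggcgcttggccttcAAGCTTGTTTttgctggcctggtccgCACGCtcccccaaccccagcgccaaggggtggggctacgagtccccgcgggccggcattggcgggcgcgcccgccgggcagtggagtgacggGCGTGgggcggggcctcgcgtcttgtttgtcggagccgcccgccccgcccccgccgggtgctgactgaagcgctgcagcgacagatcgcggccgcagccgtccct
Sesn2: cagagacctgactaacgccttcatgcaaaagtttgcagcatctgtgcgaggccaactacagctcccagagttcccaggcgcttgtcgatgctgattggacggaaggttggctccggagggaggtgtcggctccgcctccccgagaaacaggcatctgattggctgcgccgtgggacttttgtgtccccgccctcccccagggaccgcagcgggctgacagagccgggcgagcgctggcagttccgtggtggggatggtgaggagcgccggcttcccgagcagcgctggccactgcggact
Ddit4: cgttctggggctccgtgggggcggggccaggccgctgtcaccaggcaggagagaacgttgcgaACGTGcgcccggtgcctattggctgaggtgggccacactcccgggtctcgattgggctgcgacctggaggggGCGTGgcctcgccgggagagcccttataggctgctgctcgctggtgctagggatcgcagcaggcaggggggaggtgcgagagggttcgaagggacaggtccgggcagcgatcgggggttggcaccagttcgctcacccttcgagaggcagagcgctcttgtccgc

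The motifs searched were the p53 half-site, TGATGNAA (bound by ATF4 with its partners), ACGTG and GCGTG (the cores of hypoxia response elements), GTAAACA (FOXO) and TGACGTCA (CREB and ATF1). A p53 half-site was found in 8.36% of all 32817 windows of the same length, and TGATGNAA in 3.97%. ACGTG was found in 19.6% of windows, GCGTG in 32.4%, GTAAACA in 3.65% and TGACGTCA in 1.79%. The second Sesn1 window held a p53 half-site at 173 to 164 bases before the start, and GCGTG at 147 to 143 and at 55 to 51 bases before it. The first Sesn1 window held GTAAACA at 22 to 28 bases after the start, read on the opposite strand. The Ddit4 window held ACGTG at 187 to 183 and GCGTG at 115 to 111 bases before the start. The Sesn2 window held none of these letters, and no match shown overlaps another. Windows were found for 7 of the 8 genes, and of the rest those of Tsc1 and Tsc2 each held 1 GCGTG. These matches are letters within short windows and say nothing of binding.

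Zc3hc1 itself checked the labels. It was at 5.61, 5.65 and 5.75 in irradiated KO and 5.82, 5.74 and 5.78 in untreated KO, against 7.98, 8.21 and 7.67 in irradiated WT and 8.47, 8.39 and 7.99 in untreated WT, in log2 units as in all levels and differences that follow. The KO arrays were all below the WT arrays, with differences of -2.28 (SE 0.15) after irradiation and -2.50 (SE 0.15) without it (limma, adjusted p = 4.02e-05 and 1.37e-05). Array medians were 5.74 to 5.85. The 8 measured LSK and stem cell markers averaged 8.40 to 9.09 over the arrays. Of 7 measured lineage markers used in the sort, 5 (Cd3e, Cd4, Cd8a, Ly6g and Ms4a1) did not pass the brightness limit of 5.29. A tested gene needs to exceed it on 3 arrays, and Cd3e and Cd4 did so on fewer. The other 2 were above the limit on every array, Itgam at 7.39 to 8.66 and Ptprc at 10.44 to 10.81. RNA levels of a whole gene show neither surface protein nor which form of it is made. The purity of the sort is therefore not read from these 2 genes. The 5 measured erythroid markers had array means of at most 6.10 in irradiated KO (median 5.82) against at most 7.41 in untreated KO (median 7.09), and of 5.66 to 5.89 in irradiated WT against 6.41 to 6.89 in untreated WT, and 4 of the 5 fell with irradiation in KO and 1 of the 5 in WT. These markers moved with irradiation. Every untreated KO array mean was also above every untreated WT array mean. Their untreated KO minus WT differences had a median of 0.59, and 3 of the 5 had an unadjusted p under 0.05 (limma). In irradiated cells that median was -0.04, with 0 of the 5 at such a p. Their interaction had a median of -0.53, with 3 of the 5 at such a p (limma). In these contrasts 0 of the 5 passed the adjusted test. The part of these markers in the members' irradiation and genotype values was not tested. In bulk samples like these, fewer cells of a type and less RNA per cell cannot be told apart. The irradiated KO array 1 correlated least with its own group (0.960 and 0.965 across genes, which are not independent replicates).

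The 3 sestrins differed from each other after irradiation. Sesn2 was more than 3-fold higher in irradiated cells of either genotype, Sesn1 was slightly lower in irradiated KO cells and overlapped between the WT groups, and Sesn3 was marked more by which WT sample was measured than by dose. Ddit4 was about 2-fold higher and Deptor was lower in irradiated cells of both genotypes. Of the 8 genes, 6 did not overlap between irradiated and untreated KO arrays (Sesn2, Ddit4 and Tsc1 higher, Sesn1, Tsc2 and Deptor lower), and 4 did not overlap between irradiated and untreated WT arrays (Sesn2 and Ddit4 higher, Prkab1 and Deptor lower). Over all tested genes, 23.4% did not overlap in KO (10.2% higher and 13.2% lower) and 24.8% in WT (11.4% higher and 13.3% lower), and since the irradiation values chose the members nothing is read from their counts.

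**Figure D1:**
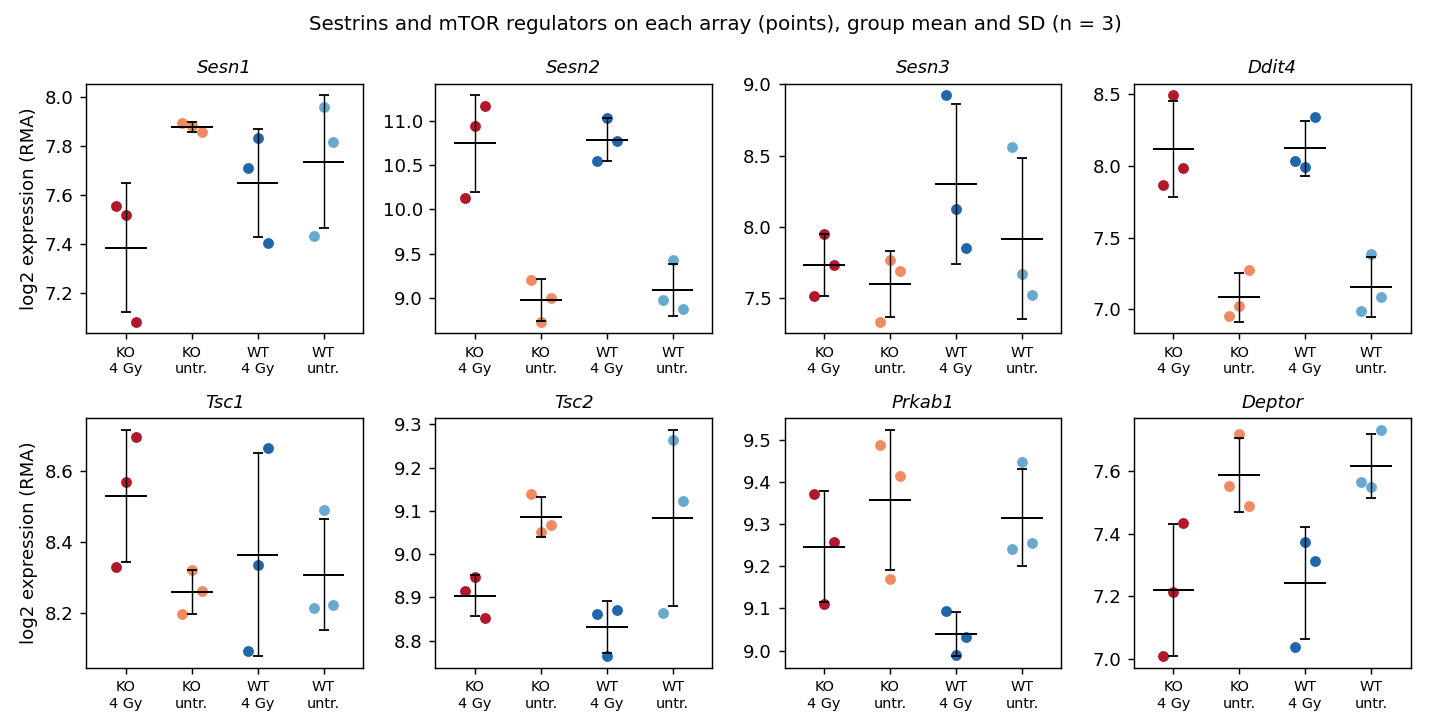
Level (log2, vertical axis) of each of the 8 genes on each of the 12 arrays, grouped as irradiated KO, untreated KO, irradiated WT and untreated WT, with a line at each group mean and an error bar of 1 SD (n = 3). Sesn2 and Ddit4 have both irradiated groups above both untreated groups, and Deptor has both irradiated groups below them.

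Sesn2, the sestrin best known as an inducible leucine sensor and stress gene, had 10.13, 10.95 and 11.17 in irradiated KO arrays and 9.21, 8.73 and 8.99 in untreated KO arrays. It had 10.55, 11.04 and 10.77 in irradiated WT arrays and 8.97, 9.43 and 8.88 in untreated WT arrays. Every irradiated array was above every untreated one. The group means were 10.75 ± 0.55 and 8.98 ± 0.24 in irradiated and untreated KO and 10.79 ± 0.24 and 9.09 ± 0.29 in irradiated and untreated WT (SD, n = 3 each). The difference was 1.77 (SE 0.25), or 3.42-fold, in KO and 1.70 (SE 0.25), or 3.24-fold, in WT. The lowest irradiated value was that of the KO array 1, which also stood lowest in its group for Ddit4, and without that array the KO difference was 2.08.

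Sesn1, described first as a p53 target and thought to act in the same way on GATOR2, had 7.55, 7.52 and 7.08 in irradiated KO arrays and 7.90, 7.88 and 7.86 in untreated KO arrays. In WT it had 7.71, 7.83 and 7.40 in irradiated arrays and 7.43, 7.96 and 7.82 in untreated arrays. The irradiated KO arrays were all lower than the untreated KO arrays, while the WT groups overlapped. Means were 7.39 ± 0.26 and 7.88 ± 0.02 in irradiated and untreated KO and 7.65 ± 0.22 and 7.74 ± 0.27 in irradiated and untreated WT (SD, n = 3 each). The difference was -0.49 (SE 0.17), or 1.41-fold lower, in KO and -0.09 (SE 0.17) in WT. The WT difference was 0.03 without the irradiated WT array 3 and 0.02 without the untreated WT array 2, so its sign rests on single arrays. The lowest Sesn1 value, in the irradiated KO array 3, lay in an array whose 7 measured B cell markers averaged 8.34, against 6.31 and 6.49 in the other irradiated KO arrays. The untreated KO array 2 had a B cell marker mean nearly as high, 8.25, with Sesn1 at 7.88, in the middle of its group. The part of the B cell markers in the Sesn1 values was not tested.

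Sesn3, a sestrin known as a target of FOXO factors, had 7.52, 7.95 and 7.74 in irradiated KO arrays and 7.33, 7.77 and 7.69 in untreated KO arrays. It had 8.93, 8.13 and 7.85 in irradiated WT arrays and 8.56, 7.67 and 7.52 in untreated WT arrays. The groups overlapped in either genotype, and the WT sample number 1 was the highest in both doses. Group means were 7.73 ± 0.22 and 7.60 ± 0.23 in irradiated and untreated KO and 8.30 ± 0.56 and 7.92 ± 0.56 in irradiated and untreated WT (SD, n = 3 each), with differences of 0.14 (SE 0.29) in KO and 0.38 (SE 0.29) in WT. Single arrays moved both: the WT difference was 0.07 without the irradiated WT array 1 and 0.71 without the untreated WT array 1, and the KO difference was 0.004 without the untreated KO array 1 and 0.24 without the irradiated KO array 1. The spread of Sesn3 within groups, an SD of 0.43, was larger than that of 95.5% of tested genes.

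Taken by sample number, Sesn3 differed between the WT doses by similar steps. Among the WT arrays, where those of the same number deviated from their group means together, the irradiated minus untreated difference was 0.36, 0.46 and 0.33 for numbers 1, 2 and 3 (SD 0.07). The KO arrays were not compared in this way, since their numbers did not pair them. The WT sample number 1 also had the lowest mean of the 8 granulocyte markers, 7.99 against 8.91 and 9.30 in irradiated WT and 7.94 against 8.92 and 9.41 in untreated WT. Its 8 LSK and stem cell markers had the highest mean, 9.09 against 8.69 and 8.81 in irradiated WT and 9.04 against 8.79 and 8.83 in untreated WT. The part of these marker differences in the Sesn3 level was not tested. For Sesn2 the same-number differences in WT were 1.58, 1.61 and 1.90, and for Sesn1 they were 0.28, -0.13 and -0.41, with both signs among 3 numbers.

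**Figure D2:**
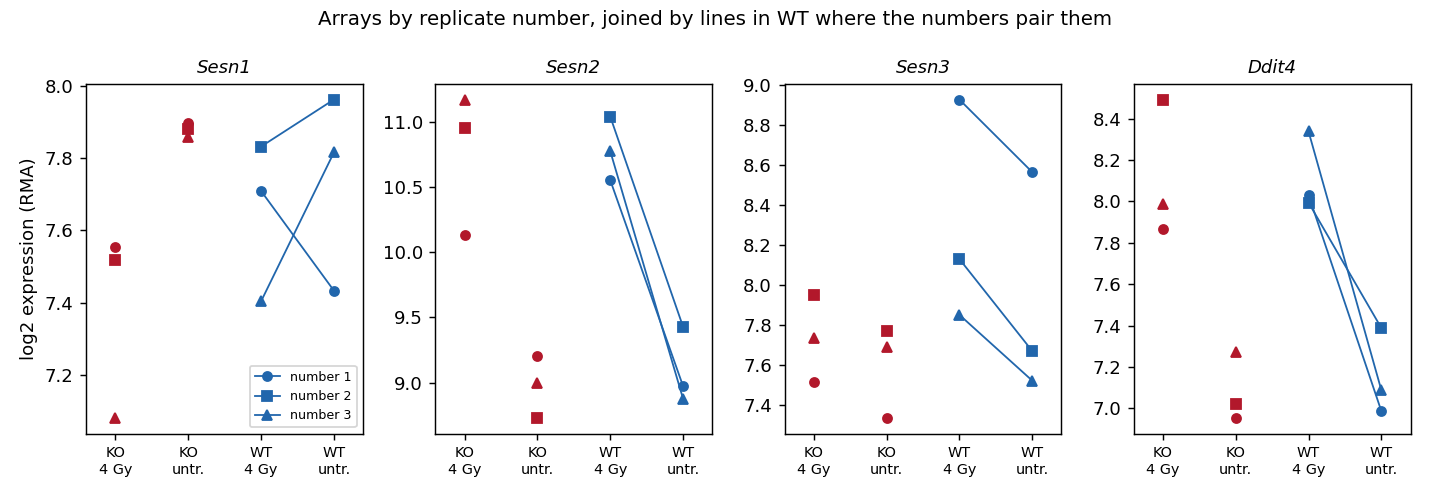
Levels (log2, vertical axis) of Sesn1, Sesn2, Sesn3 and Ddit4 in irradiated and untreated arrays, with a marker shape for each sample number and lines that join WT arrays of the same number. The 3 Sesn3 lines have nearly the same slope at different heights, the 3 Sesn2 lines all slope the same way, and the WT lines of numbers 1 and 3 cross for Sesn1.

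Ddit4, whose product lowers mTOR complex 1 activity in hypoxia and other stress, had 7.87, 8.49 and 7.99 in irradiated KO arrays and 6.95, 7.02 and 7.27 in untreated KO arrays. It had 8.03, 7.99 and 8.34 in irradiated WT arrays and 6.99, 7.39 and 7.09 in untreated WT arrays. All 6 irradiated arrays were above all 6 untreated ones. The means were 8.12 ± 0.33 and 7.08 ± 0.17 in irradiated and untreated KO and 8.12 ± 0.19 and 7.15 ± 0.21 in irradiated and untreated WT (SD, n = 3 each). The difference was 1.03 (SE 0.18), or 2.05-fold, in KO and 0.97 (SE 0.18), or 1.96-fold, in WT.

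The genes of the TSC complex that Ddit4 acts on differed much less. Tsc1, the stabilising subunit, had 8.33, 8.57 and 8.69 in irradiated KO arrays and 8.20, 8.32 and 8.26 in untreated KO arrays. It had 8.09, 8.33 and 8.66 in irradiated WT arrays and 8.21, 8.49 and 8.22 in untreated WT arrays. The irradiated KO arrays were just above the untreated ones and the WT arrays overlapped. The difference was 0.27 (SE 0.15) in KO and 0.06 (SE 0.15) in WT, and the WT value lay between -0.09 without the irradiated WT array 3 and 0.19 without the irradiated WT array 1. Tsc2, the subunit that carries the GTPase-activating domain, had 8.91, 8.95 and 8.85 in irradiated KO arrays and 9.14, 9.05 and 9.07 in untreated KO arrays. It had 8.86, 8.76 and 8.87 in irradiated WT arrays and 8.86, 9.26 and 9.12 in untreated WT arrays. Tsc2 was slightly lower in irradiated cells, with no overlap in KO and 1 untreated WT array inside the irradiated WT range. The differences were -0.18 (SE 0.11) in KO and -0.25 (SE 0.11) in WT. Within groups Tsc2 varied less than most genes, with an SD of 0.11 that only 12.1% of tested genes were below.

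Prkab1, the beta 1 subunit through which AMPK senses glycogen and holds its complex together, had 9.37, 9.11 and 9.26 in irradiated KO arrays and 9.49, 9.17 and 9.42 in untreated KO arrays. It had 9.09, 8.99 and 9.03 in irradiated WT arrays and 9.24, 9.45 and 9.26 in untreated WT arrays. The KO arrays overlapped, and the irradiated WT arrays were the lowest of all 12. The differences were -0.11 (SE 0.12) in KO and -0.28 (SE 0.12) in WT.

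Deptor, the inhibitor that binds mTOR directly, had 7.01, 7.22 and 7.43 in irradiated KO arrays and 7.55, 7.72 and 7.49 in untreated KO arrays. It had 7.04, 7.37 and 7.31 in irradiated WT arrays and 7.57, 7.55 and 7.73 in untreated WT arrays. Every irradiated array was below every untreated one. The difference was -0.37 (SE 0.13) in either genotype. A second, dimmer Deptor probe set, which the rule did not use, had 6.60, 6.73 and 6.61 in irradiated KO arrays and 7.32, 7.11 and 7.23 in untreated KO arrays, against 6.66, 6.78 and 6.84 in irradiated WT arrays and 7.33, 7.36 and 7.33 in untreated WT arrays. It too had all irradiated arrays below all untreated arrays, with means of 6.64 and 7.22 in irradiated and untreated KO and 6.76 and 7.34 in irradiated and untreated WT. Both probe sets come from the same arrays and share any difference between them.

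**Figure D3:**
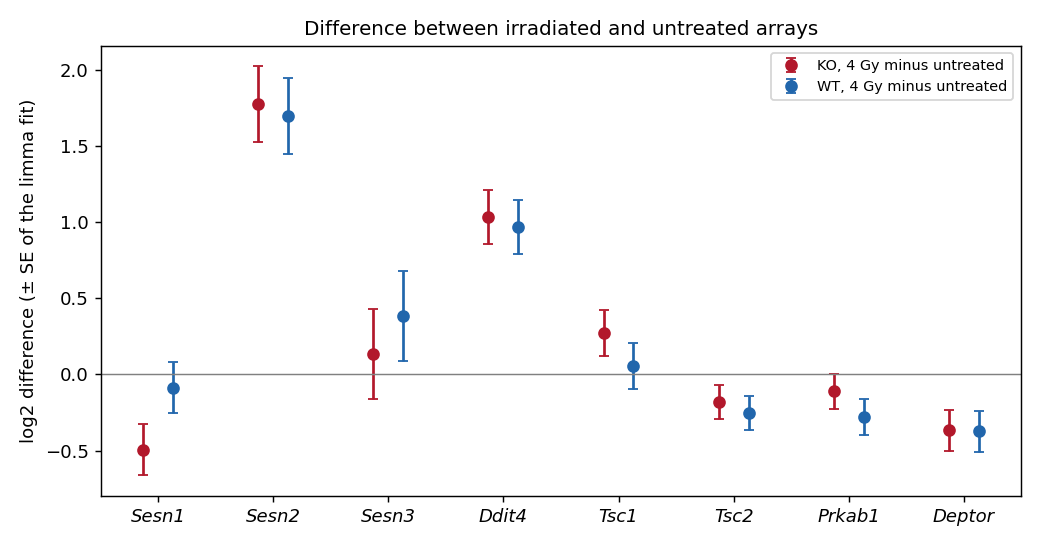
Irradiated minus untreated difference (log2, vertical axis) of each of the 8 genes in KO and WT, with its standard error from the fit over all 12 arrays. Sesn2 lies near 1.7 and Ddit4 near 1 in both genotypes, Deptor lies at -0.37 in both, and Sesn1 lies at -0.49 in KO and -0.09 in WT.

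The level order of the groups followed from these values. For Sesn2 and Ddit4 the order was irradiated WT, irradiated KO, untreated WT and untreated KO, and only the step between irradiated KO and untreated WT separated neighbouring groups without overlap. For Deptor the order was untreated WT, untreated KO, irradiated WT and irradiated KO, with a step of 0.34 between untreated KO and irradiated WT as the only one without overlap. For Sesn1, Sesn3, Tsc1 and Tsc2 every neighbouring pair of groups overlapped. For Prkab1 the only step without overlap, 0.21, was that between irradiated KO and irradiated WT at the low end.

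None of the 8 genes passed the test between KO and WT cells. In limma, 0 of 8 passed for KO minus WT in irradiated cells, in untreated cells, in the average of both, and for the interaction, which asks whether irradiation acted differently in KO and WT. Over all tested genes 1, Zc3hc1 itself, passed in each of the first 3 of these contrasts (0.00652%) and 0 in the interaction (0%). At an unadjusted p under 0.05 the count of members was also 0 in each contrast (limma), and over all genes it was 471 in irradiated cells, 330 in untreated cells, 635 in the average and 235 in the interaction. Every adjusted p of a member rounded to 1.00.

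The intervals, which are not adjusted for the number of genes, show which genotype differences these arrays do not exclude. The adjusted test could miss larger ones. In irradiated cells KO minus WT was -0.04 (95% interval -0.58 to 0.50) for Sesn2, -0.26 (-0.63 to 0.10) for Sesn1 and -0.00 (-0.39 to 0.38) for Ddit4. Sesn3 had the largest difference of the 8, -0.57 (-1.21 to 0.07) in irradiated cells, with a limma unadjusted p of 0.0765. Without the irradiated WT array 1 it was -0.26, about that of Sesn1, and without both irradiated arrays numbered 1 it was -0.15. In untreated cells Sesn3 differed by -0.32 (-0.96 to 0.32), and by 0.003 without the untreated WT array 1, and averaged over both doses it differed by -0.44 (-0.90 to 0.01; limma unadjusted p = 0.0533), or by -0.28 without the untreated WT array 1 and -0.29 without the irradiated WT array 1. Prkab1 was the only one of the 8 whose KO and WT arrays did not overlap after irradiation, where 6.40% of all tested genes did not overlap (2.57% higher and 3.83% lower in KO). It was higher in KO by 0.21 (-0.05 to 0.46), and without irradiation none of the 8 was free of overlap (7.96% of all tested genes, 4.40% higher and 3.55% lower in KO). The other members differed by 0.17 or less in irradiated cells and by 0.14 or less in untreated cells, in either direction.

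The interaction of Sesn1, the largest in size among the members, was -0.41 (SE 0.24; 95% interval -0.92 to 0.11; limma unadjusted p = 0.112, adjusted p = 1.00). A difference in the response of Sesn1 between KO and WT was therefore not shown. The interaction was 0.08 (-0.69 to 0.84) for Sesn2, 0.07 (-0.47 to 0.60) for Ddit4 and 0.01 (-0.41 to 0.42) for Deptor. For Sesn3 it was -0.25, for Tsc1 0.21, for Prkab1 0.17 and for Tsc2 0.07.

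**Figure D4:**
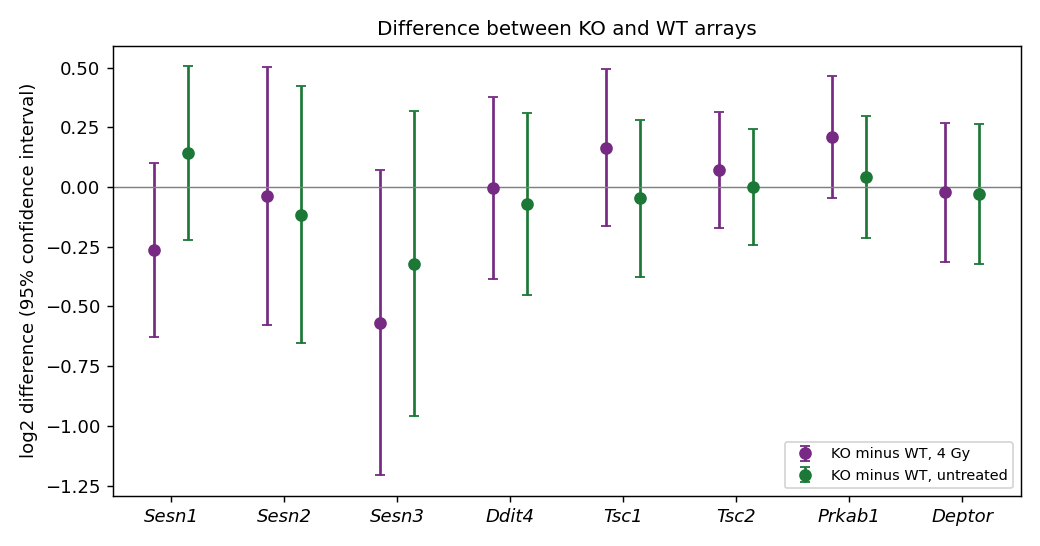
KO minus WT difference (log2, vertical axis) of each of the 8 genes in irradiated and in untreated cells, with the 95% interval from limma. Every interval includes 0, and those of Sesn3 are the widest.

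The rest of the mTOR pathway was examined through 87 listed genes other than the members, of which 80 were tested, 2 were below the brightness limit and 5 had no probe set. Most did not pass the test: 5 rose and 5 fell with irradiation in KO, and 5 rose and 3 fell in WT (limma, adjusted p under 0.05). Over all tested genes, 5.94% passed in KO (2.74% higher and 3.20% lower) and 4.83% in WT (2.13% higher and 2.70% lower). The median irradiation difference of the 80 was -0.03 in either genotype, beside -0.02 in KO and 0.004 in WT over all tested genes. With the sample number as a block and only the WT arrays, where the numbers pair, 18 passed in WT. That fit passed 2111 of the 15348 tested genes. Leaving out 1 array gave 4 in KO without the untreated KO array 2, and 4 in WT without the untreated WT array 3 or the irradiated WT array 3. Over all tested genes these fits passed 392 in KO, and 314 and 350 in WT. For KO minus WT and the interaction, limma passed 0 of the 80 in every contrast, and at an unadjusted p under 0.05 the count was 1 in irradiated cells, 1 in untreated cells, 2 in the average and 0 in the interaction.

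**Figure D5:**
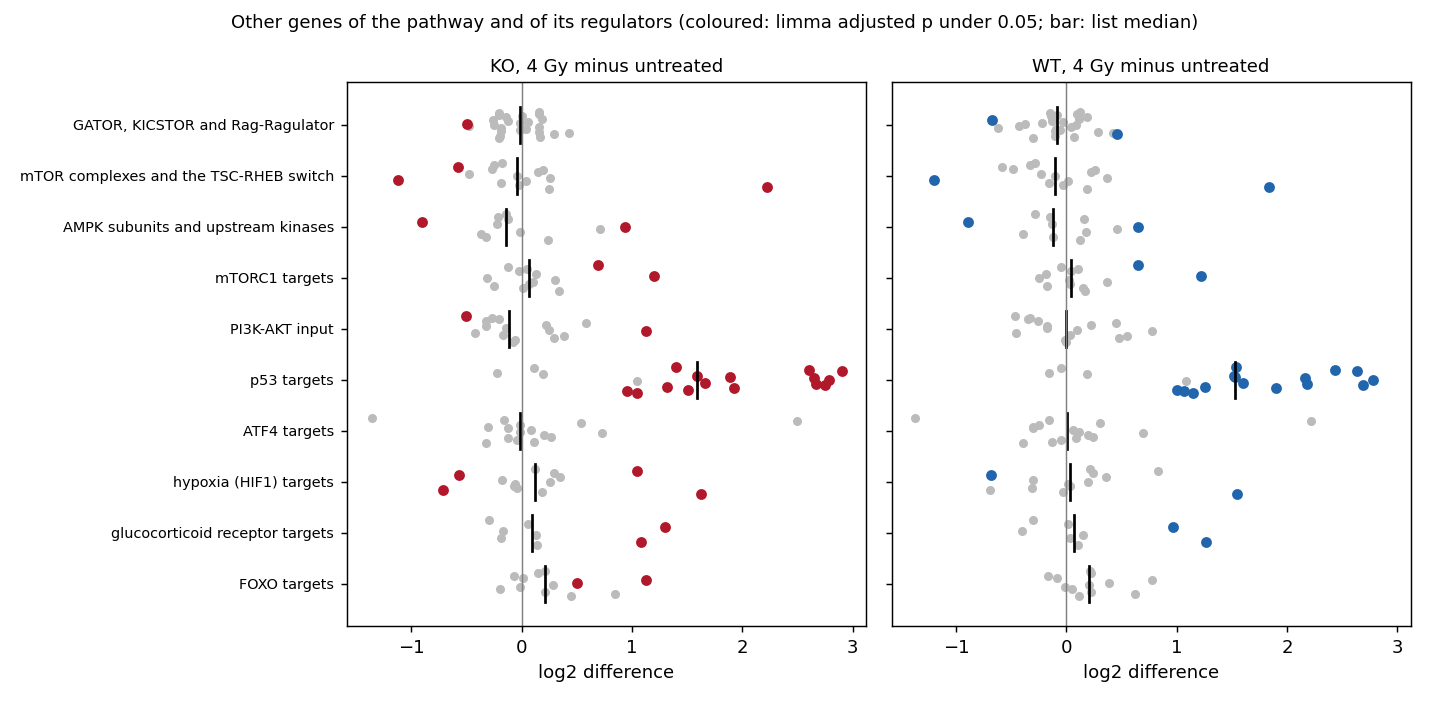
Irradiated minus untreated difference (log2, horizontal axis) of every tested gene of 5 mTOR pathway lists and 5 lists of regulator targets, in KO and in WT, with the median of each list and coloured points for genes past the limma test. The medians of the 5 pathway lists lie between -0.14 and 0.07, and those of the p53 targets at 1.59 in KO and 1.53 in WT.

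Among the mTOR complexes and the TSC-RHEB switch, 1 of 15 rose and 2 fell in KO, and 1 rose and 1 fell in WT. The share past the test over all tested genes was 5.94% in KO and 4.83% in WT. Without the untreated KO array 2 a single gene passed in KO, and with the sample number as a block and the WT arrays alone 4 passed in WT. Over all 15348 tested genes these fits passed 392 in KO and 2111 in WT. Ddit4l, the paralogue of Ddit4 that also inhibits mTOR complex 1, had 6.73, 7.53 and 7.86 in irradiated KO arrays and 5.10, 5.41 and 4.95 in untreated KO arrays, against 6.81, 8.03 and 7.35 in irradiated WT arrays and 5.49, 5.72 and 5.47 in untreated WT arrays. All irradiated arrays were above all untreated ones. Of the untreated KO arrays 1 of 3 exceeded the brightness limit, so the KO difference is best read as a lower limit. Ddit4l rose by 2.22 (SE 0.30) in KO and by 1.83 (SE 0.30) in WT (limma, adjusted p = 0.00125 and 0.00435). Prr5, a subunit of mTOR complex 2, averaged 7.50 ± 0.45 in irradiated KO and 8.62 ± 0.21 in untreated KO, and 7.35 ± 0.10 in irradiated WT and 8.55 ± 0.33 in untreated WT (SD, n = 3 each; limma, adjusted p = 0.0105 in KO and 0.0079 in WT). The KO call of Prr5 ended without the untreated KO array 2 (limma, adjusted p = 0.0555).

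The AMPK list had a rise of 1 regulatory subunit beside a fall of another, with 1 of 11 rising and 1 falling in either genotype. These counts stand beside 5.94% of all tested genes in KO and 4.83% in WT. Prkab2, which encodes the other beta subunit, had 8.56, 8.58 and 8.96 in irradiated KO arrays and 7.76, 7.72 and 7.81 in untreated KO arrays. It had 8.21, 8.59 and 8.52 in irradiated WT arrays and 7.84, 7.89 and 7.66 in untreated WT arrays. Prkab2 rose with no overlap, by 0.93 in KO and 0.65 in WT (SE 0.14 each; limma, adjusted p = 0.00203 and 0.0188), while Prkab1 was 0.11 and 0.28 lower, as given above. Its WT call ended without the untreated WT array 3, the irradiated WT array 2 or the irradiated WT array 3 (limma, adjusted p = 0.0926, 0.0653 and 0.0805), which left 1 gene of the list past the test in WT. Prkag2, a gamma subunit that binds AMP, had 7.07, 6.84 and 6.63 in irradiated KO arrays and 7.65, 7.55 and 8.05 in untreated KO arrays. It had 7.09, 6.99 and 6.91 in irradiated WT arrays and 7.87, 7.77 and 8.01 in untreated WT arrays. Prkag2 fell by 0.90 in KO and by 0.89 in WT (SE 0.15 each; limma, adjusted p = 0.00414 and 0.00491), and its groups did not overlap.

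Of 13 listed targets of mTOR complex 1, 2 rose and 0 fell in either genotype, beside 5.94% of all tested genes past the test in KO and 4.83% in WT. Lpin1, a phosphatidate phosphatase whose entry into the nucleus the kinase controls, had 8.61, 9.21 and 8.98 in irradiated KO arrays and 7.73, 7.52 and 7.95 in untreated KO arrays. It had 8.62, 8.81 and 9.15 in irradiated WT arrays and 7.63, 7.59 and 7.71 in untreated WT arrays. Lpin1 rose by 1.20 in KO and by 1.22 in WT (SE 0.17 each; limma, adjusted p = 0.00192 and 0.00174), with no overlap. Ulk1, the kinase that starts autophagy, was past the test in both genotypes with differences of 0.70 in KO and 0.65 in WT (limma, adjusted p = 0.0277 and 0.0423). Both Ulk1 calls were lost without any 1 of several arrays: in KO without array 1 or 2 of the untreated or array 2 or 3 of the irradiated KO group, at adjusted p of 0.0923 to 0.121, and in WT without any untreated WT array, irradiated WT array 1 or 3, array 1 or 2 of untreated KO, or array 3 of irradiated KO, at 0.0521 to 0.166 (limma). Each of these losses left 1 gene of the list past the test.

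The sestrins' own target lies in the list of GATOR, KICSTOR and the Rag-Ragulator complex. Of its 25 genes 0 rose and 1 fell in KO, and 1 rose and 1 fell in WT, beside 5.94% of all tested genes in KO and 4.83% in WT. With the sample number as a block and the WT arrays alone, 5 of the 25 passed in WT. That fit passed 2111 of all 15348 tested genes. Mios, a subunit of the GATOR2 complex that sestrins bind, was past the test in KO with a difference of -0.49 (limma, adjusted p = 0.0480). Flcn, which acts on RagC and RagD, and Rragb, a Rag GTPase, were past it in WT with 0.46 and -0.67 (limma, adjusted p = 0.0224 and 0.0387). Of 16 genes of the PI3K-AKT input, 1 rose and 1 fell in KO, and 0 passed in WT, where 5 had an unadjusted p under 0.05 and 5 passed with the sample number as a block and the WT arrays alone (limma). Over all 15348 tested genes 3040 had such an unadjusted p in WT, and 2111 passed with that block. Irs2, an adaptor of the insulin receptor, was past the test in KO at 1.13 (limma, adjusted p = 0.0117), but not without untreated KO array 2 or irradiated KO array 2 (0.0555 and 0.0541). Pik3r2, a regulatory PI3K subunit, was past it in KO at -0.51 (limma, adjusted p = 0.0348), and Telo2, which helps assemble mTOR complexes, in KO at -0.58 (limma, adjusted p = 0.0474).

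The calls of Mios, Flcn, Rragb, Pik3r2 and Telo2 each rested on single arrays. In limma, the Mios call was lost without any untreated KO array, irradiated KO array 2 or 3, untreated WT array 2 or 3, or irradiated WT array 1, at adjusted p of 0.0561 to 0.165. The Flcn call was lost without untreated WT array 2 or 3 or irradiated WT array 2 or 3, at 0.0511 to 0.108. The Rragb call was lost without any untreated array of either genotype or without irradiated WT array 2 or 3, at 0.0517 to 0.158. The Pik3r2 call was lost without any untreated KO array, irradiated KO array 2 or 3, or untreated WT array 3, at 0.0525 to 0.136. The Telo2 call was lost without any untreated KO array, irradiated KO array 1 or 3, untreated WT array 2, or irradiated WT array 2, at 0.0598 to 0.180. The count of the GATOR, KICSTOR and Rag list was 0 in KO without each of the arrays named for Mios, 2 without untreated WT array 1 and 3 without irradiated KO array 1. In WT it was 0 without untreated WT array 2 or 3 or irradiated WT array 3 and 1 without any untreated KO array or irradiated WT array 2. The count of the PI3K-AKT list was 0 in KO without untreated KO array 2 or irradiated KO array 2 and 1 without untreated KO array 1 or 3, irradiated KO array 3 or untreated WT array 3. In WT the PI3K-AKT count was 1 without irradiated WT array 1 and 2 without irradiated KO array 1. Over all tested genes the fit without irradiated KO array 1 passed 1573 in KO and 1040 in WT.

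Lists of genes under regulators known to drive members gave a context for the irradiation values. The p53 targets other than the members rose in 15 of 19 and fell in 0 of 19 in KO and likewise in WT. Over all tested genes 2.74% rose and 3.20% fell in KO, and 2.13% rose and 2.70% fell in WT. The median differences of the p53 targets were 1.59 and 1.53, and 14 or 15 passed without any 1 array. The part of p53 in the members' values was not tested. Phlda3, which binds phosphoinositides and restrains AKT, rose by 2.78 (SE 0.19) in either genotype (limma, adjusted p = 1.72e-05 in KO and 1.25e-05 in WT). Ccng1 rose by 1.93 in KO and by 1.90 in WT (limma, adjusted p = 1.72e-05 and 1.34e-05). Eda2r rose by 2.75 in KO and by 2.69 in WT (limma, adjusted p = 3.25e-05 and 3.80e-05). Of 16 ATF4 targets, genes of amino acid shortage that are known to respond with Sesn2 and Ddit4, 0 passed in KO and 0 in WT, with 4 and 3 at an unadjusted p under 0.05 (limma). Their medians were -0.02 in KO and 0.004 in WT. In KO the count was 4 without irradiated KO array 1, 2 without irradiated WT array 1 and 1 without untreated WT array 1. Over all tested genes these fits passed 1573, 940 and 912 in KO. In WT it was 2 without irradiated KO array 1 or irradiated WT array 1, 1 without irradiated KO array 3, and 3 with the sample number as a block, over all arrays or the WT arrays alone. Over all tested genes these fits passed 1040, 637, 771, 1076 and 2111 in WT, in that order. The block over all arrays gave 3 in KO, where 1224 of all tested genes passed.

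Of 13 hypoxia targets, 2 rose and 2 fell in KO and 1 rose and 1 fell in WT, with medians of 0.13 and 0.03. For this list and the glucocorticoid and FOXO lists below, the share over all tested genes was 5.94% in KO and 4.83% in WT. Adm, which encodes the vessel-dilating peptide adrenomedullin, rose by 1.62 (SE 0.24) in KO and by 1.55 (SE 0.24) in WT (limma, adjusted p = 0.00217 and 0.00297). Untreated Adm lay around the brightness limit, at 5.36, 4.65 and 5.44 in KO and 5.16, 5.50 and 4.92 in WT, so both differences are best read as lower limits. Pdk1 went the other way, with differences of -0.57 in KO and -0.68 in WT (limma, adjusted p = 0.0303 and 0.014). Slc2a1 was past the test in KO at 1.05 (limma, adjusted p = 0.0183). The calls of Pdk1 and Slc2a1 were lost without any 1 of several arrays, among them untreated KO array 2 for both in KO and untreated WT array 2 for Pdk1 in WT. A single hypoxia target passed in KO without array 2 or 3 of either the irradiated or the untreated KO group, and a single one in WT without untreated WT array 2 or 3, while 4 passed in WT without untreated WT array 1 or with the sample number as a block and the WT arrays alone. The fits with 4 passed 763 and 2111 of all 15348 tested genes in WT. Of 8 glucocorticoid receptor targets, 2 rose in either genotype. Sgk1, a kinase activated by mTOR complex 2, rose by 1.30 in KO and by 0.96 in WT (limma, adjusted p = 0.00418 and 0.0244), and Dusp1, a phosphatase of MAP kinases, by 1.08 in KO and by 1.26 in WT (limma, adjusted p = 0.0319 and 0.0168). That count was 1 in KO without any untreated KO array or irradiated KO array 2 or 3, 1 in WT without array 2 of untreated WT or array 3 of irradiated WT, and 0 in WT without array 3 of untreated WT or array 2 of irradiated WT. Of 12 FOXO targets, 2 rose in KO, Irs2 and Gabarapl1, and 0 passed in WT, where 2 had an unadjusted p under 0.05 (limma). The median was 0.21 in either genotype. In KO the count of FOXO targets was 0 without untreated KO array 2 or irradiated KO array 2 and 1 without untreated KO array 1 or irradiated KO array 3, and in WT it was 1 without irradiated KO array 1 and 2 with the sample number as a block and the WT arrays alone. Over all tested genes the last 2 of these fits passed 1040 and 2111 in WT.

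The pattern of each member over the 12 arrays was set beside that of every other tested gene, as the root mean square difference of log2 values centred on each gene's own mean. The arrays share 4 groups and may share pools, so the distances are descriptions. Closest to Sesn2 were Ddias at 0.234, Mdm2 at 0.238, Slc19a2 at 0.241 and Adm at 0.246, beside a median of 0.937 over all tested genes. Mdm2 encodes the ubiquitin ligase of p53 and is among its targets. Closest to Ddit4 were Tmem63b at 0.117, Rap2b at 0.152, Ier5 at 0.155 and Dennd2c at 0.165 (median 0.568). Closest to Sesn1 were Elovl6 at 0.112, Dhx16 at 0.120, and Htra2 and Tmem106c at 0.127 each (median 0.306). Closest to Sesn3 were Pkp2 at 0.182, Mid2 and Nrk at 0.194 each and Tmem59l at 0.199 (median 0.482). Within the set, Tsc2 and Prkab1 were 0.113 apart, Sesn2 and Ddit4 0.460, and Sesn1 and Sesn2 1.08.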

How the data were processed

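RNA of 12 samples was measured on Affymetrix arrays. All results start from the log2 levels that the authors deposited for each probe set on each array. Per the submitters' processing notes these were made with the R package oligo and RMA, which removes background, equalises the arrays' quantiles and combines the probes of a probe set. The versions and the annotation release behind them are not stated in the sources used here. Quantile normalization gives every array the same distribution of probe intensities, so a shift of all genes would not be seen. The levels after the probes were combined did not have exactly the same distribution, with array medians of 5.74 to 5.85. Of 41345 probe sets, 23521 had 1 symbol, 1814 several (not used) and 16010 none in the platform annotation, and 23328 of the 23521 matched the RefSeq gene table, which updated the symbols. The brightest probe set of a gene was used. Genes over the 40th percentile of all values (5.29) on at least 3 arrays were tested.

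Groups and numbers came from the sample titles. The lmFit and eBayes functions of limma 3.58.1 (R 4.3.3) were run once on all 12 arrays, with 4 group means and no block. Tests were two-sided, with Benjamini-Hochberg adjustment over the 15348 tested genes and a threshold of 0.05. The fit was first tested on simulated data. The members and the lists were chosen with earlier results of these data known. Named genes were the 8 members, Zc3hc1, up to 3 genes past the test with the smallest p in each list and genotype, and the 4 genes nearest in pattern to Sesn1, Sesn2, Sesn3 and Ddit4. The number of arrays limits the precision. Alternatives were no brightness limit, array medians subtracted, cyclic loess, the mean of all probe sets of a gene, a trend and robust prior, only the arrays compared, blocks for the sample number, and each array left out.

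The labels state no pairing. Deviations from group means of same-numbered arrays correlated at 0.42 to 0.491 between irradiated and untreated WT, where all 6 arrays correlated best with their own number, so the numbers were taken to pair these arrays from the data. Untreated KO and irradiated WT arrays, 6 of 6, also correlated best with their own number, at 0.152 to 0.316. Those arrays are of different genotypes and so of different mice, so this measure does not show shared pools. What same-numbered arrays share was not tested. The correlations were -0.239 to 0.474 between irradiated and untreated KO and -0.289 to 0.341 between irradiated KO and WT, so those numbers were not taken to pair. Irradiated and untreated KO arrays of other numbers correlated at up to 0.517 (irradiated 2 with untreated 3) and 0.438 (irradiated 3 with untreated 2), beside 0.474 for both numbered 1, so KO samples may share pools under other numbers. No fit was made on such pairs. The correlations were 0.102 to 0.233 between untreated KO and WT.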

Additional observations from a re-analysis of the deposited data

How the results depend on the processing

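Over 22 alternatives, 999 of the 1000 values of the 8 genes stayed within 1 SD (irradiation) or on the same side of the test (genotype and interaction). For genotype and interaction values that count says little, since none was near the threshold. It took untreated KO minus WT of Sesn3 as unmoved, though this went from -0.32 to 0.003 without untreated WT array 1. For irradiation the limit is wide where the SD is large, and the Sesn3 difference in WT stayed within it while running from 0.07 to 0.71. Of the 1000 values, 54 turned sign, none of them past the test. Of the 54, 51 were genotype or interaction differences of at most 0.32 as reported and 3 were irradiation differences in WT, namely Sesn1 (0.03 and 0.02) and Tsc1 (-0.09), each without 1 array. The value that moved by over 1 SD was the irradiation difference of Tsc2 in KO, -0.18, which was -0.13 under cyclic loess. No member passed a genotype or interaction test under any alternative, with a lowest adjusted p of 0.786 (limma). The replicate block changed no call of a member, including where it joined untreated KO and WT arrays by number. The numbers do not pair the KO arrays, so a block in KO joins samples by number alone. The count of other mTOR pathway genes past the test with irradiation in KO, 10, was 6 with only the arrays compared, 5 with the replicate block and only the arrays compared, 16 without both irradiated arrays numbered 1, and 4 to 15 leaving out 1 array. The count in WT, 8, was 18 with the replicate block and only the arrays compared and 4 to 11 leaving out 1 array. With the replicate block over all arrays the counts were 10 in KO and 10 in WT, and with it within genotype 11 in KO and 11 in WT. The calls over all genes moved alongside: 911 in KO against 392 without untreated KO array 2 and 1573 without irradiated KO array 1, and 742 in WT against 314 without untreated WT array 3 and 2111 with the replicate block and only the arrays compared. The cause of these moves was not tested. Leaving out 1 array lost 1 to 12 of the 34 calls of named list genes, the most without untreated KO array 2. Of the 34, 9 were lost with only the arrays compared. The replicate block with only the arrays compared also lost 9 (among them Prkag2 in KO, limma, adjusted p = 0.0509). The losses were 3 each without the brightness limit or with array medians subtracted, and 2 each with cyclic loess or a trend and robust prior. None of the 34 was reversed. The Zc3hc1 difference in irradiated cells was not past the test in the fit with the replicate block and only the arrays compared (limma, adjusted p = 0.0692). With 3 arrays a group, genotype differences of the members inside the printed intervals are not excluded, and the adjusted test could miss larger ones.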
